A study of Homo sapiens with 11 samples.

Results

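The histone lysine demethylases described here are 10 genes (KDM2B, KDM3A, KDM3B, KDM4A, KDM4B, KDM4C, KDM5B, KDM6A, KDM6B and KDM7A). They were taken by gene symbol from the 60676 genes counted by RNA-seq. No measured value entered this rule, but the genes were chosen with earlier results of these data known. All 10 passed the filter on low counts, which left 19981 genes for testing. Jumonji-type demethylases such as these remove methyl groups from histone lysines and consume molecular oxygen, with iron and 2-oxoglutarate as cofactors, so that oxygen bears both on their catalysis and, for some members, on their transcription. KDM3A and KDM3B act on mono- and dimethylated H3K9, KDM4A to KDM4C on trimethylated H3K9 and H3K36, KDM5B on H3K4, KDM6A and KDM6B on H3K27, KDM2B on H3K36, and KDM7A on H3K9 and H3K27. The counts report transcripts and neither enzyme activity nor histone methylation.

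The cells were RWPE1, an immortalized and non-tumorigenic prostate epithelial line grown in keratinocyte serum-free medium with bovine pituitary extract (BPE), EGF and antimicrobials. Untreated cells in normoxia (n = 3 libraries) were compared with cells kept in 1% oxygen. There were 3 libraries after 6 h of hypoxia, 3 after 12 h and 2 after 24 h. A further 24 h library was not analysed here. The hypoxic media also received HEPES buffer, so oxygen and buffer cannot be told apart, and there was no normoxic control at the later times. Only 1 cell line was used, and no source says that replicates came from separate cultures, so p-values measure only the spread between these libraries. In bulk RNA, a change in the share of cells that express a gene cannot be told apart from a change in RNA per cell.

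Libraries held 27496009 to 49488345 counts, and no pair of replicates looked like 1 library deposited again. The 24 h libraries were the least alike, and 24 h replicate 2 stood apart, with a TMM scaling factor of 0.539 against 0.851 to 1.32 elsewhere and 0.369% of counts from the mitochondrial genome against 1.74% to 10.3% elsewhere. Why it stood apart was not tested. Refits without it show how far values depend on it, and 24 h changes whose call depends on it are given with and without it. A fit without 1 of the 24 h libraries leaves 1 library there and takes its spread from the other groups. Its calls and p-values therefore measure no spread at 24 h. Basal markers were abundant in every library (KRT5 from 6080 to 15900 CPM, counts per 1000000 after TMM scaling), and the luminal marker KLK3 had no count in any library. The luminal keratins KRT8 (133 to 1140 CPM) and KRT18 (93.9 to 658 CPM) were present in every library. KRT8 (log2 fold changes of 1.43, 1.72 and 2.59 after 6, 12 and 24 h), KRT18 (1.63, 1.92 and 2.48) and the basal KRT14 (1.21, 1.39 and 2.13) were called higher at each time, and the basal markers TP63 (-1.72, -0.95 and -1.50) and KRT15 (-1.73, -1.27 and -1.07) lower. Of the 5 basal markers looked at, 2 were called higher and 2 lower at 6 h. At 12 h and at 24 h, 3 were called higher and 2 lower. KRT5 was among those higher at 12 h (0.99) and 24 h (0.73) and was not called at 6 h (0.505). Whether these shifts have a part in the results was not tested. All 8 hypoxia-inducible genes used as a check of the labels (among them CA9, LDHA and SLC2A1) were higher at each of the 3 times.

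In normoxia, the members spanned a wide range of transcript levels. Per kilobase of the reference (MANE Select) transcript, KDM5B was highest at 20.5 ± 0.252 CPM per kb (SD, n = 3), followed by KDM3B at 16.7 ± 1.02, KDM6B at 13.1 ± 0.398 and KDM3A at 9.04 ± 0.0962. KDM4B (6.47), KDM4A (4.75), KDM2B (3.47), KDM6A (3.44), KDM4C (2.81) and KDM7A (0.91) followed. Only KDM2B and KDM6A had overlapping libraries among neighbours in this order. KDM4A shares 40.24% of its exonic bases with a same-strand gene, and whether this lowers its counts and its place was not tested. The order depends on the length used: per kilobase of all annotated exons, KDM3B came first (14.2), before KDM6B (12) and KDM5B (7.65). After 6 h and 12 h of hypoxia KDM3A had moved to the second place with 38.2 ± 6.74 and 37.2 ± 0.741 CPM per kb of reference transcript, beside 41.2 ± 1.1 and 41.2 ± 0.541 for KDM5B, whose libraries overlapped those of KDM3A at 6 h but not at 12 h. At 24 h (n = 2) KDM3A ranked first with 39.6 ± 21.4 CPM per kb, overlapping KDM5B (23 ± 12.2), and KDM6B, in the third place in normoxia, was in the eighth with 2.82 ± 0.774, overlapping its neighbours KDM4C and KDM6A (per kilobase of all exons it was in the sixth). These 24 h ranks rest on 2 libraries that differed.

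**Figure D1:**
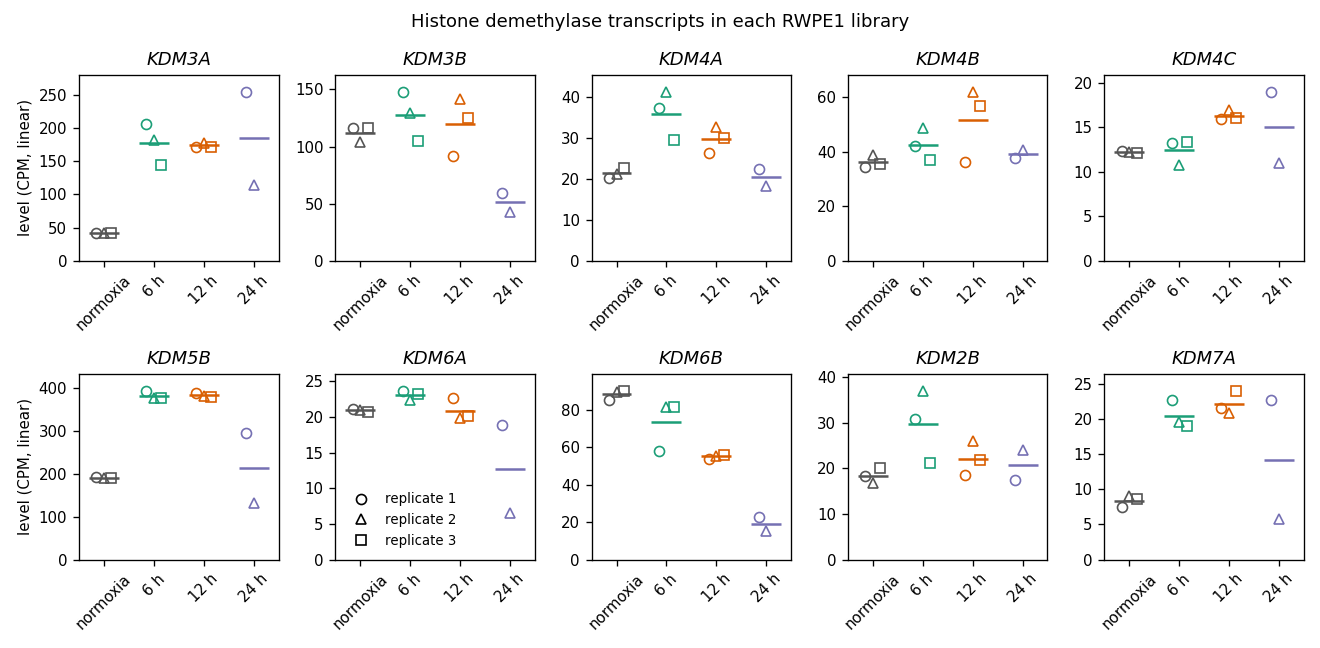
Level of each of the 10 demethylases in every library, in CPM after TMM scaling on a linear axis that starts at 0, with bars at the group means and marker shapes for the replicate numbers. KDM3A lies above normoxia in all 8 hypoxic libraries, KDM6B lies below normoxia in all 8, and the 24 h libraries differ most for KDM3A, KDM5B, KDM6A and KDM7A.

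Each time point was then compared with normoxia in edgeR's quasi-likelihood test, and a gene was called at a Benjamini-Hochberg adjusted p below 0.05 over all tested genes. All adjusted p-values below come from this test. At 6 h, 5 members were higher (KDM2B, KDM3A, KDM4A, KDM5B and KDM7A) and 0 were lower, where 25.1% of all tested genes were called higher and 27.7% lower. At 12 h, 5 members were higher (KDM3A, KDM4A, KDM4B, KDM5B and KDM7A) and KDM6B was lower, against 24.2% and 27.1% of all tested genes. At 24 h, KDM3A was higher while KDM3B and KDM6B were lower, against 29.9% and 31.3%. In either direction the background was 52.8%, 51.2% and 61.2%, so the number of members called (5, 6 and 3 of 10) was near or below that of all genes. Libraries did not overlap normoxia for 7, 6 and 4 members, beside 69.6%, 72.3% and 73% of all tested genes. Over all 8 hypoxic libraries, KDM3A alone lay above every normoxic library (20.5% of tested genes did) and KDM6B alone below (25%). The members' median log2 fold change was 0.46, 0.45 and 0.14 at 6, 12 and 24 h, beside -0.00, -0.03 and -0.07 over all tested genes. The 0 members lower at 6 h were also 0 at an unadjusted p below 0.05 and with DESeq2 and limma-voom, with or without sample quality weights. These 3 comparisons share the normoxic libraries and are not independent of each other. This main fit of all 11 libraries estimates 1 spread per gene for all groups. The SEs, intervals and calls at 6 h and 12 h therefore also carry the spread at 24 h. With only the groups compared in the fit, 65.4% of tested genes were called at 6 h (5 members higher, 0 lower). At 12 h it was 69.5% (6 members higher, 1 lower).

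TMM scaling mattered for the smaller changes. With library size alone, the median log2 fold change of all genes moved to -0.32, -0.50 and -0.97 at 6, 12 and 24 h, and 27.6%, 20% and 16.4% of the called genes were higher, instead of 47.6%, 47.2% and 48.8%. Under that scaling KDM3A was the only member called higher at each time, and 0, 1 and 6 members were called lower. The calls for KDM3A, for KDM6B at 12 h and 24 h and for KDM3B at 24 h held under every alternative run for those comparisons.

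**Figure D2:**
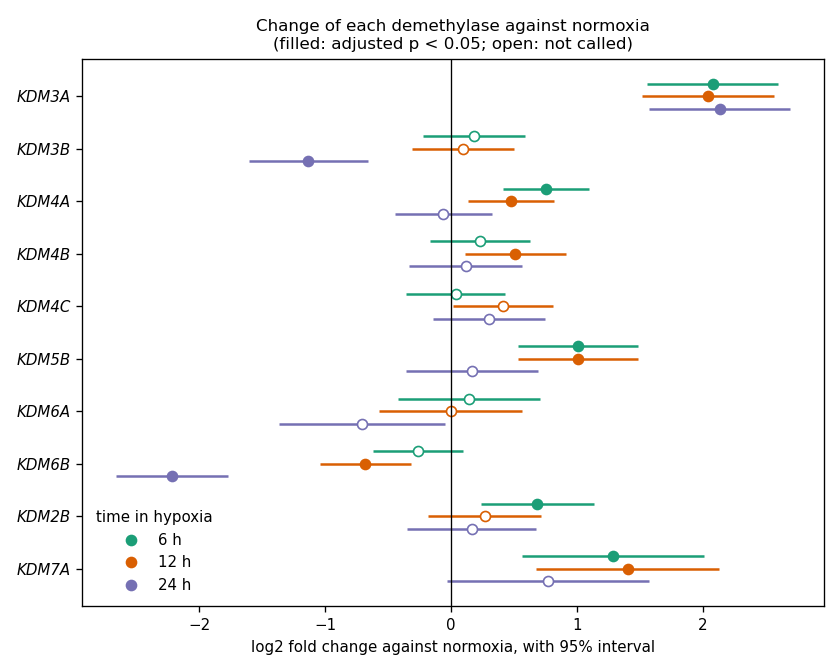
Log2 fold change of each member against normoxia after 6, 12 and 24 h, with 95% intervals from edgeR's quasi-likelihood fit with TMM scaling, where filled points were called. KDM3A stays near 2 at all 3 times and KDM6B falls to -2.22 at 24 h. With library size alone both stay called in these directions, but KDM3A changes by -0.42 from 6 h to 24 h. That scaling also loses the 6 h and 12 h calls of the other members higher here. It turns the 24 h values of KDM2B, KDM4B, KDM4C and KDM5B negative.

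Between the H3K9me1/2 demethylases, KDM3A rose strongly while its close relative KDM3B was called higher at no time. KDM3A (2:86440647-86492716, plus strand, GRCh38) encodes an enzyme known as a transcriptional target of hypoxia-inducible factors. It measured 42.4, 42.5 and 41.7 CPM in the normoxic libraries. The levels were 207, 182 and 145 CPM at 6 h, 172, 178 and 172 CPM at 12 h, and 255 and 114 CPM at 24 h. Every hypoxic library lay above every normoxic one. The log2 fold change was 2.08 ± 0.24 at 6 h (SE, adjusted p = 2.36e-05), 2.04 ± 0.24 at 12 h (adjusted p = 3.63e-05) and 2.13 ± 0.26 at 24 h (adjusted p = 2.26e-05), that is 4.22-fold, 4.12-fold and 4.39-fold. The 24 h value was 2.58 without replicate 2 and 1.38 without replicate 1.

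KDM3B (5:138352685-138437028, plus strand) was already well expressed in normoxia, with 116, 104 and 116 CPM. It measured 148, 129 and 105 CPM at 6 h and 92.1, 142 and 125 CPM at 12 h, overlapping normoxia at both times. Both 24 h libraries, with 59 and 43.1 CPM, were below all others. KDM3B was therefore called lower at 24 h (log2 fold change -1.13 ± 0.22, adjusted p = 0.000702) but not at 6 h (0.19, 95% interval -0.22 to 0.59) or 12 h (0.10, -0.31 to 0.50). Without 24 h replicate 2 the 24 h value was -0.95.

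The ratio of KDM3A to KDM3B counts within a library needs no scaling between libraries. On the log2 scale, with 0.5 added to each count, it was -1.41 ± 0.10 in the 3 normoxic libraries (mean ± SD). It was 0.48 ± 0.01 in the 3 libraries at 6 h, 0.56 ± 0.30 in the 3 at 12 h and 1.76 ± 0.50 in the pair at 24 h. KDM3B counts thus exceeded KDM3A counts in all 3 normoxic libraries, and KDM3A counts exceeded KDM3B counts in all 8 hypoxic libraries. Over the 8 hypoxic and 3 normoxic libraries the ratio rose by 2.24 on the log2 scale (4.72-fold, exact two-sided permutation test p = 0.0121, the smallest this design allows, and 0.0303 after Benjamini-Hochberg adjustment over the 5 ratios tested). Without any 1 normoxic library the rise was 2.20 to 2.30, with an adjusted exact permutation p of 0.111, as 8 against 2 libraries cannot go below 0.0444. KDM3A by itself also lay above normoxia in all 8 hypoxic libraries, as 20.5% of tested genes did. The ratio is therefore not a result separate from that of KDM3A. How many other pairs of genes separate in this way was not counted.

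The sequences just upstream of these genes are shown because the core of the hypoxia response element, the motif bound by hypoxia-inducible factors, is short and can be read directly. The 250 bases before the MANE Select start are printed 5′ to 3′ on the strand of the gene (RefSeq promoters, GRCh38.p14), with ACGTG and GCGTG, or their reverse complements CACGT and CACGC, in capitals. KDM3A had 1 match, 26 bases before its start, and KDM3B had 0.
KDM3A, chr2:86441121-86441370, plus strand: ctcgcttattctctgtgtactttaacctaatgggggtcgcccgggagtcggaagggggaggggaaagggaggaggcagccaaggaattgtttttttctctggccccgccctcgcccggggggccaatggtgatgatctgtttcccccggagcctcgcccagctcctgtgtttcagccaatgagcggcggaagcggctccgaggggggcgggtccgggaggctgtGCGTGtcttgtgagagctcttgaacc
KDM3B, chr5:138352435-138352684, plus strand: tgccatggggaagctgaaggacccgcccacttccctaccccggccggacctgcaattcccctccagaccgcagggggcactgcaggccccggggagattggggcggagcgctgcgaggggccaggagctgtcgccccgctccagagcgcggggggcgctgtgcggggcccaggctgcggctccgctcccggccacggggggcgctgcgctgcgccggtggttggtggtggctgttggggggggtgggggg
Of 34943 promoter windows of this length, 18.5% held ACGTG and 32.2% held GCGTG on either strand, and 43.2% held at least 1 of them. Windows at the MANE Select start held a match for 8 of the 10 members. KDM4C and KDM6A had 5 each, KDM4B had 4, and KDM4A, KDM5B, KDM6B and KDM7A had 1, while KDM3B and KDM2B had 0. A palindromic CACGTG counts on both strands, and both motifs hold a CG dinucleotide: the members' windows had 54% to 81.6% G and C, against a median of 58% over all windows. KDM6B, which was lower, had as many matches as KDM3A. At other annotated starts, windows of the same length held 1, 1 and 2 matches for KDM2B, 1 for KDM3A (the same site) and 0 for KDM6B. A match describes the letters only, and a site outside the windows of annotated starts was not searched for.

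Of the H3K27 demethylases, KDM6B fell. KDM6B (17:7834217-7854796, plus strand), also known as JMJD3 and an inducible gene in several cell types, measured 85.4, 89.5 and 90.5 CPM in normoxia. It measured 57.9, 81.8 and 81.5 CPM at 6 h, 54, 55.5 and 56.1 CPM at 12 h, and 22.7 and 15.3 CPM at 24 h. All 8 hypoxic libraries were below the lowest normoxic one, and the 24 h libraries were below every other. The log2 fold change was -0.26 ± 0.17 at 6 h (SE, adjusted p = 0.2), -0.68 ± 0.17 at 12 h (adjusted p = 0.00486) and -2.22 ± 0.20 at 24 h (adjusted p = 3.8e-06), the last a 4.65-fold lower level. Without 24 h replicate 2 the 24 h value was -1.98, and without replicate 1 it was -2.59. The promoter window of KDM6B held 1 GCGTG, 231 bases before the start.
KDM6B, chr17:7833967-7834216, plus strand: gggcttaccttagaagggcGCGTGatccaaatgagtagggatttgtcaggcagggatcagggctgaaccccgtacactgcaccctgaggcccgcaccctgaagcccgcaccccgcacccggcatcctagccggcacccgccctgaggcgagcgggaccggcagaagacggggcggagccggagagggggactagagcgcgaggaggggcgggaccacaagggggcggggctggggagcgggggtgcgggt

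KDM6A (X:44873188-45112779, plus strand), also called UTX and part of the MLL3/4 complexes that methylate H3K4, was not called against normoxia at any time in the main edgeR fit. Its libraries ran from 20.7 to 21.1 CPM in normoxia, 22.3 to 23.7 CPM at 6 h and 19.8 to 22.7 CPM at 12 h. The 24 h libraries differed, with 18.9 CPM in replicate 1 and 6.54 CPM in replicate 2. The log2 fold change at 24 h was -0.71 ± 0.30 (adjusted p = 0.0585). It turned on 1 library: -0.17 without replicate 2 and -1.73 without replicate 1. The 24 h call also depended on the method and the settings: KDM6A was called lower in 7 of 20 alternatives. Among them were DESeq2 (adjusted p = 0.0424) and limma-voom (-0.87, adjusted p = 0.0234). So were edgeR with the replicate block (-0.82, adjusted p = 0.0365) and edgeR with no filter on low counts (-0.81, adjusted p = 0.00138). The log2 ratio of KDM6B to KDM6A counts was 2.08 ± 0.06 in normoxia, 1.66 ± 0.32 at 6 h, 1.41 ± 0.14 at 12 h and 0.74 ± 0.68 at 24 h. It was below every normoxic library in 8 of 8 hypoxic libraries and fell by 0.74 on the log2 scale over all of them (exact permutation p = 0.0121, adjusted 0.0303). Without any 1 normoxic library the fall was not called (adjusted exact permutation p = 0.111). KDM6B by itself also lay below normoxia in all 8 hypoxic libraries, as 25% of tested genes did. The ratio is therefore not a result separate from that of KDM6B.

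Among the H3K9me3 and H3K36me3 demethylases the changes were small. KDM4A (1:43650149-43705518, plus strand) rose from 20.1, 21.3 and 22.6 CPM to 37.2, 41.3 and 29.4 CPM at 6 h and 26.4, 32.6 and 30 CPM at 12 h, without overlap. At 24 h it was back in the normoxic range in replicate 1 (22.5 CPM) and below it in replicate 2 (18.3 CPM). Its log2 fold change was 0.75 ± 0.16 at 6 h (adjusted p = 0.00151), 0.48 ± 0.16 at 12 h (adjusted p = 0.0223) and -0.06 ± 0.18 at 24 h (adjusted p = 0.78). The 12 h call was lost without normoxia replicate 1 or 2 or 12 h replicate 2 or 3 (adjusted p from 0.061 to 0.111). Of its exonic bases, 40.24% are shared with a same-strand gene, ENSG00000284989, listed at 0 in all libraries, and 9.12% with the antisense gene KDM4A-AS1, which had 4 to 64 counts. The strand setting of the counting is not given in the sources used here.

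KDM4B (19:4969113-5153598, plus strand) measured 34.5, 38.7 and 35.6 CPM in normoxia and 36.3, 62 and 56.7 CPM at 12 h, where replicate 1 remained within the normoxic range. It was called higher at 12 h (log2 fold change 0.51 ± 0.19, adjusted p = 0.0344), but leaving out any 1 of the normoxic libraries, or 12 h replicate 2 or 3, ended the call (adjusted p from 0.0636 to 0.198). Its levels were 36.8 to 48.7 CPM at 6 h and 37.7 and 40.8 CPM at 24 h, and neither time was called. KDM4C (9:6720863-7175648, plus strand) measured 12.1 to 12.3 CPM in normoxia and 15.9 to 16.9 CPM at 12 h, which did not overlap (0.41 ± 0.18, adjusted p = 0.0741). KDM4C at 12 h was called higher without 24 h replicate 1 (0.39, adjusted p = 0.0106) or replicate 2 (0.41, adjusted p = 0.00734), with sample quality weights (adjusted p = 0.000177) and with only the 2 groups fitted (adjusted p = 0.00107). It was 10.8 to 13.4 CPM at 6 h. At 24 h it split into 19 CPM in replicate 1 and 11 CPM in replicate 2. The 24 h log2 fold change was 0.62 without replicate 2 and -0.20 without replicate 1.

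The balance within the KDM4 group showed no shift over all hypoxic libraries that passed the test. The log2 ratio changed by -0.15 for KDM4B to KDM4A, -0.21 for KDM4C to KDM4A and 0.06 for KDM4B to KDM4C, with exact permutation p from 0.497 to 0.788. At 6 h alone, all 3 libraries lay below normoxia for KDM4B to KDM4A (0.25 ± 0.07 against 0.77 ± 0.10) and for KDM4C to KDM4A (-1.52 ± 0.40 against -0.80 ± 0.10). An exact test of 3 against 3 libraries cannot go below p = 0.1, which both reached.

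**Figure D3:**
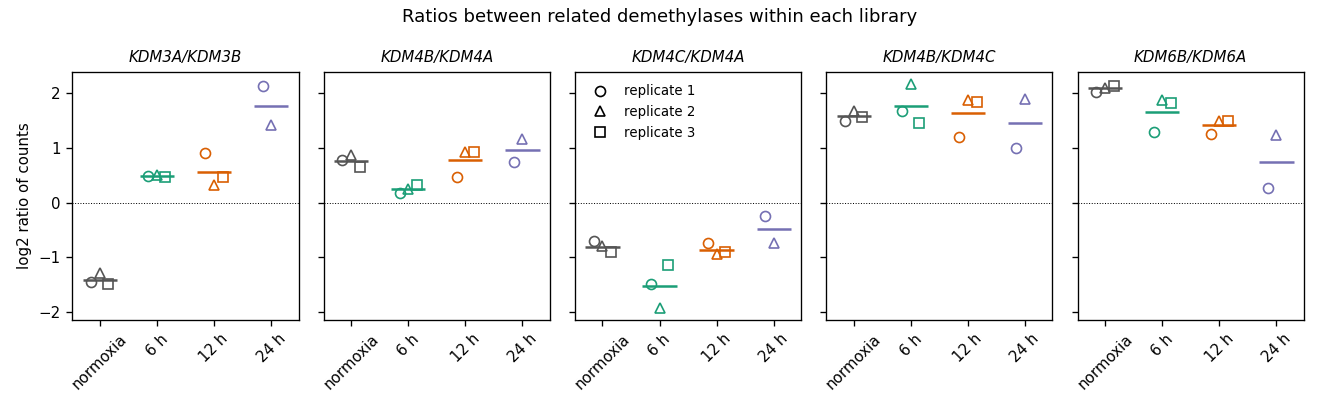
Log2 ratio of the counts of related demethylases within each library, with bars at the group means, so that no scaling between libraries enters. KDM3A to KDM3B crosses from below 0 in normoxia to above 0 in all 8 hypoxic libraries, KDM6B to KDM6A lies below normoxia in all 8, and the ratios within the KDM4 group overlap normoxia at 12 h.

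The remaining members are KDM5B, KDM7A and KDM2B, of which KDM5B was the most abundant. KDM5B (1:202724495-202808487, minus strand) removes methyl groups from H3K4 and is known as a repressor in epithelial cells. It measured 193, 189 and 189 CPM in normoxia, 394, 377 and 376 CPM at 6 h and 389, 381 and 379 CPM at 12 h, 2.01-fold at both times. The normoxic and the 6 h and 12 h libraries were far apart and tight within each group (log2 fold change 1.01 ± 0.22 at each time, adjusted p = 0.00213 and 0.00236). These SEs come from the spread over all groups, among them the 24 h libraries, and not from the 6 h, 12 h and normoxic libraries alone. The 24 h libraries lay on either side of normoxia, with 294 CPM in replicate 1 and 133 CPM in replicate 2, and the mean change was 0.17 ± 0.24 (adjusted p = 0.569). The 24 h log2 fold change of KDM5B was 0.61 without replicate 2 and -0.57 without replicate 1.

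KDM7A (7:140084746-140176983, minus strand), the least abundant member in normoxia per kilobase of reference transcript, showed the same split. Per kilobase of all exons, KDM6A (0.755) was below KDM7A (0.895) in normoxia. The levels of KDM7A were 7.46, 9.01 and 8.7 CPM in normoxia, 22.7, 19.6 and 19.1 CPM at 6 h and 21.6, 20.9 and 24.1 CPM at 12 h. The log2 fold change was 1.29 ± 0.34 at 6 h (adjusted p = 0.00623) and 1.40 ± 0.34 at 12 h (adjusted p = 0.00413). At 24 h, replicate 1 had 22.7 CPM, as at the earlier times, and replicate 2 had 5.78 CPM, below normoxia. The 24 h value of 0.77 ± 0.37 (adjusted p = 0.0873) became 1.42 without replicate 2 and -0.59 without replicate 1. In these fits the lone 24 h library is assumed to vary like the other groups. The promoter window of KDM7A is shown because its fold change at 6 h and 12 h was the next highest after that of KDM3A, and it held 1 ACGTG, 180 bases before the start.
KDM7A, chr7:140176984-140177233, minus strand: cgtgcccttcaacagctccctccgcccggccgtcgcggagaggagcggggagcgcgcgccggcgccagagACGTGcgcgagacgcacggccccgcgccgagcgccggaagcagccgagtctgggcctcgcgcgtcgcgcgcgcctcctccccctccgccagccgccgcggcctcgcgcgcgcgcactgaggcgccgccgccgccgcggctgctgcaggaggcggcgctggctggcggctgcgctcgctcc

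KDM2B (12:121429096-121581023, minus strand), the H3K36 demethylase that recruits the Polycomb complex PRC1.1 to CpG islands, was called higher at 6 h and at no later time in the main edgeR fit. It measured 18.4, 16.8 and 20.1 CPM in normoxia and 30.8, 37.1 and 21.2 CPM at 6 h (log2 fold change 0.69 ± 0.21, adjusted p = 0.0147). Replicate 3 at 6 h lay just above normoxia, and the call was lost without normoxia replicate 2 (0.62, adjusted p = 0.0625) or 6 h replicate 2 (0.50, adjusted p = 0.0779). Levels of 18.6 to 26 CPM at 12 h and 17.4 and 24 CPM at 24 h overlapped normoxia. With sample quality weights, limma-voom called KDM2B higher at 12 h as well (0.26, adjusted p = 0.043). Of its exonic bases, 4.92% overlap genes on the other strand, mainly RNF34.

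Within hypoxia, the members called differed between 24 h and the earlier times. Between 6 h and 12 h the main edgeR fit called 0 of 10 members, where 4.95% of all tested genes were called. Only 1 member, KDM6B (-0.42 ± 0.17), had an unadjusted p below 0.05, and DESeq2 and limma-voom also called 0, while limma-voom with sample quality weights called 3. From 12 h to 24 h, 4 members were lower and 0 higher, with 13.3% of all genes called lower and 15.1% higher: KDM6B (-1.54 ± 0.20, adjusted p = 0.0012), KDM3B (-1.23 ± 0.22, adjusted p = 0.00282), KDM5B (-0.84 ± 0.25, adjusted p = 0.0249) and KDM4A (-0.54 ± 0.18, adjusted p = 0.0401). From 6 h to 24 h these 4 and KDM6A (-0.85 ± 0.31, adjusted p = 0.0394) were lower, with 20.3% of all genes called lower and 22.1% higher. In both comparisons the number of members higher was also 0 at an unadjusted p below 0.05 and with DESeq2 and limma-voom, with or without sample quality weights. Without 24 h replicate 2 it was 1 against 12 h and 2 against 6 h. KDM3A changed by 0.09 (95% interval -0.47 to 0.65) from 12 h to 24 h.

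These late differences depended on the 24 h libraries to different degrees. Without 24 h replicate 2, the fall from 12 h was -1.30 for KDM6B, -1.04 for KDM3B and -0.40 for KDM5B. KDM3A was then higher than at 12 h (0.54) and than at 6 h (0.52). KDM4C was higher than at 6 h (0.60) and KDM2B lower than at 6 h (-0.77). Without 24 h replicate 1 KDM3A was lower than at 12 h instead (-0.63). The fall of KDM4A from 12 h was lost in 9 of 20 alternatives, among them the replicate block (adjusted p = 0.0655), leaving out any 1 normoxic library (adjusted p = 0.06 to 0.061), 12 h replicate 2 or 3 (0.115 and 0.0983) or 24 h replicate 2 (-0.41, adjusted p = 0.158). That of KDM6A from 6 h was lost in 12 of 20, among them leaving out any 1 library other than 24 h replicate 1 (adjusted p = 0.0511 to 0.13). When only the 12 h and 24 h libraries were fitted, no gene of 17807 passed the adjusted threshold, with 5671 at an unadjusted p below 0.05.

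Genes of the same marks and the same enzyme class give the setting. Among 60 such genes in 7 lists, all tested, 28 were higher and 11 lower at 6 h, 18 and 12 at 12 h, and 14 and 30 at 24 h. The share called was 65%, 50% and 73.3%, beside 52.8%, 51.2% and 61.2% of all tested genes. At 24 h 43 of the 60 were called without replicate 2 and 52 without replicate 1. Their median log2 fold change went from 0.33 at 6 h to 0.08 at 12 h and -0.64 at 24 h.

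Of 14 genes listed as other demethylases, related oxygenases among them, 5 were higher and 4 lower at 6 h. At 24 h, 2 were higher and 9 lower. KDM1A, the flavin-dependent H3K4 demethylase, was higher by 1.50, 1.64 and 1.54 (log2) over the time course. JMJD6, a Jumonji-domain oxygenase, had 2.59, 2.56 and 2.96, above the values of KDM3A. KDM4D, a further member of the KDM4 family, had -3.84, -1.93 and -3.31, from low counts of 4 to 144 per library. All 3 were called at each time, whereas none of KDM4A, KDM4B and KDM4C was called lower against normoxia with all libraries and TMM scaling.

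The writers of the marks that these enzymes remove did not move as 1 block. Of 7 H3K9 methyltransferases, 3 were higher and 2 lower at 6 h and 3 and 4 at 24 h: SUV39H2 was higher at 6, 12 and 24 h (1.75, 1.28 and 1.72), and SETDB2 (-1.76, -1.05 and -0.92) and SETDB1 (-1.03, -0.54 and -1.04) were lower. Of 11 H3K4 methyltransferases and subunits, 7 were higher and 1 lower at 6 h but 1 was higher and 6 lower at 24 h, and only the subunit DPY30 was called in 1 direction at all times (0.57, 0.64 and 1.72). In PRC2, the H3K27 methyltransferase, EZH1 was lower throughout (-1.89, -1.75 and -2.22), while EZH2 was not called at any time, with values of 0.02, -0.23 and -0.04. Of 5 H3K36 methyltransferases, 2 were higher at 6 h and 3 lower at 24 h, and none was called in 1 direction at all 3 times.

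PRC1.1, the complex that contains KDM2B, had 5 of its 9 other listed genes higher and 1 lower at 6 h, 6 and 1 at 12 h, and 5 and 2 at 24 h. SKP1 (1.28, 1.12 and 2.13) and the ubiquitin ligase RNF2 (0.89, 0.66 and 1.08) were higher and RNF2's paralog RING1 was lower (-1.17, -0.90 and -0.63) at all times. Of 7 other 2-oxoglutarate oxygenases, 4 were higher and 2 lower at 6 h and 2 and 4 at 24 h. Of the prolyl hydroxylases that mark hypoxia-inducible factors for degradation, EGLN3 (6.23, 6.45 and 6.77) and EGLN1 (2.10, 1.80 and 1.29) were higher at all times. EGLN2 was called lower at 12 h (-1.35) and 24 h (-1.95) and not called at 6 h (-0.58).

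**Figure D4:**
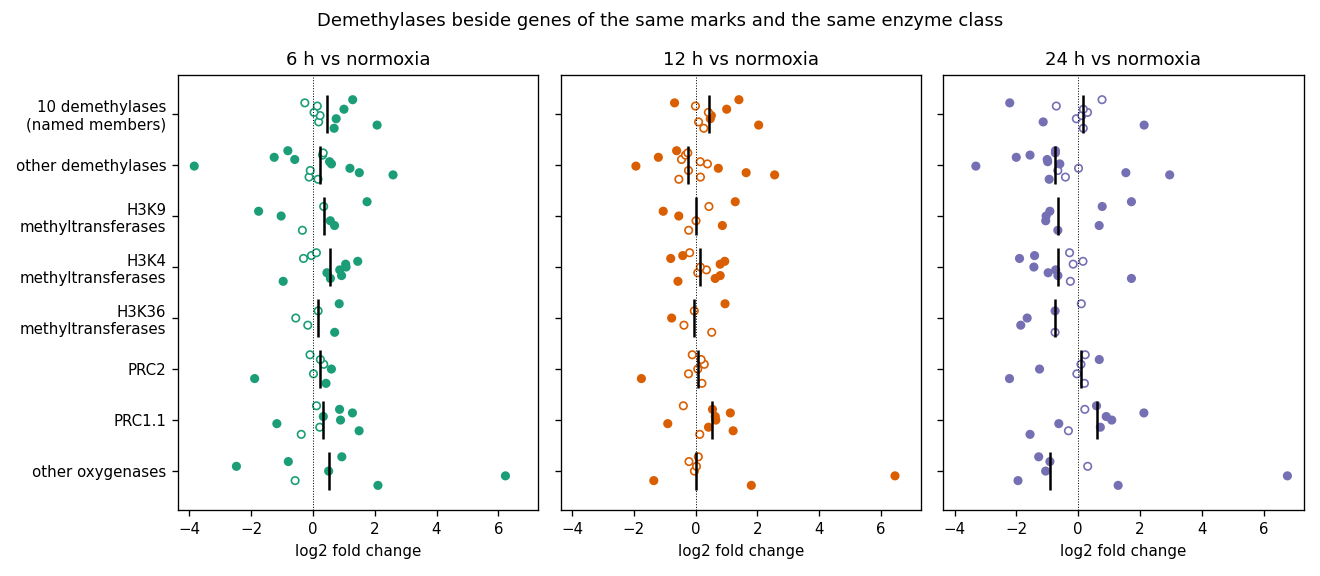
Log2 fold change against normoxia at 6, 12 and 24 h (TMM scaling) for the 10 members and 7 lists of related genes, each point a gene, filled where called, with bars at the medians. The medians of the members are 0.46, 0.45 and 0.14, and those of the other demethylases and of the H3K4 methyltransferases and subunits go from 0.24 and 0.57 at 6 h to -0.74 and -0.66 at 24 h (library size alone moves the median of all genes to -0.32, -0.50 and -0.97 on this axis).

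The genes nearest to the members with the highest and the lowest mean change were found by the distance between their 3 log2 fold changes, over 17695 genes. Nearest to KDM3A were RELT (2.15 at 6 h and 2.21 at 24 h), LYAR (2.11, 1.91 and 2.07) and LUCAT1 (2.06, 2.13 and 2.01), at distances of 0.116 to 0.155. Nearest to KDM6B were SNX18P3 (-0.35, -0.78 and -2.25), ZNF234 (-0.34, -0.78 and -2.10) and ZNF136 (-0.12, -0.78 and -2.13), at 0.137 to 0.194. These are likenesses over 3 values that share the normoxic libraries, and they say nothing of shared function.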

How the data were processed

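RNA-seq was made by the authors from RWPE1 cells (column-purified, DNase-treated RNA in stranded single-end libraries built in 1 batch). Per the submitters' processing notes and the paper's methods, the authors used FastQC, Trimmomatic, STAR and featureCounts on an hg38 (GRCh38) reference. They deposited whole-number counts per Ensembl gene, without filter or normalization, and these deposited counts are the unit used here. The strand setting, the handling of multi-mapped reads and the read depth before counting are not given in the sources used here. Total counts per library bound the precision, and intervals cover the spread between libraries.

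Symbols, positions and lengths came from GENCODE 44 (60357 of 60676 genes found), and promoters from RefSeq (10 of 10 members). filterByExpr by time point (minimum count 10, minimum total 15) kept 19981 genes. TMM scaling and edgeR's quasi-likelihood test used all 11 libraries with time as the only factor and Benjamini-Hochberg adjustment over all tested genes, called at 0.05. Ratios of related genes within a library, with 0.5 added to each count, were tested by exact two-sided permutation over libraries. The biological coefficient of variation was 19.6%. Both tests were tested on simulated data.

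The members, the lists of related genes and the rules were chosen with earlier results of these data known. Named genes are all 10 members, up to 3 genes per list called in 1 direction at all 3 times with the largest mean change, and the 3 genes nearest to the highest and lowest member. EZH2, EGLN2 and the cell type markers were named after their values were seen. No exact window of 75 bases was shared between members. Alternatives changed the test (limma-voom with and without sample quality weights, DESeq2), the scaling, the filter, the samples in the fit, the replicate block, the number added to counts, and left out each library. Software was edgeR 4.0.16 with limma 3.58.1 and, as an alternative, DESeq2 1.42.0, run in R 4.3.3. Ratios and plots used scipy 1.17.1, pandas 2.3.3 and matplotlib 3.10.9 in Python 3.11.15.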

Additional observations from a re-analysis of the deposited data

Results flagged for a closer look

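The change of 5 members against normoxia differed between times, by the test of the difference itself. From 12 h to 24 h the log2 fold change was -1.23 for KDM3B, -0.54 for KDM4A, -0.84 for KDM5B and -1.54 for KDM6B. From 6 h to 24 h it was -1.32 for KDM3B, -0.81 for KDM4A, -0.84 for KDM5B, -0.85 for KDM6A and -1.95 for KDM6B. Both comparisons use the same 2 libraries at 24 h. The call of KDM4A from 12 h was lost in 9 of 20 alternatives and that of KDM6A from 6 h in 12 of 20. When only the 12 h and 24 h libraries were fitted, no gene was called. No group had the 4 libraries needed to test a single library as an outlier.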

How the results depend on the processing

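Of the members' log2 fold changes, the calls named in the report as held did so under each alternative run. With library size alone the members called were 1, 2 and 7 at 6, 12 and 24 h, the related genes called at 6 h were 23, and values turned negative for KDM3B (-0.14), KDM4B (-0.092), KDM4C (-0.28) and KDM6A (-0.18) at 6 h, KDM2B (-0.19), KDM3B (-0.36) and KDM4C (-0.052) at 12 h, KDM2B (-0.80), KDM4B (-0.81), KDM4C (-0.54) and KDM5B (-0.63) at 24 h, KDM3A (-0.24) from 12 h to 24 h, KDM3A (-0.42) and KDM4C (-0.26) from 6 h to 24 h, and KDM2B (-0.21), KDM4A (-0.17), KDM4B (-0.28) and KDM4C (-0.29) over all hypoxic libraries. By construction this scaling leaves out the difference in composition between libraries, and what lies behind that difference was not tested.

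With sample quality weights, limma-voom called 3 members from 6 h to 12 h and 3 from 6 h to 24 h, and 49 and 28 related genes at 12 h and 24 h. With no filter 5 members were called at 24 h. With only the groups compared, 0 were called from 12 h to 24 h and 3 from 6 h to 24 h. Values near 0 changed sign: KDM4C at 6 h (-0.05 with at least 10 counts in every library, -0.024 with weights, -0.002 with no filter), KDM3B at 12 h (-0.005) and KDM4B at 24 h (-0.031) with at least 10 counts in every library, KDM6A at 12 h (0.003) with only its groups, KDM3A from 12 h to 24 h (-0.026 with limma-voom, -0.002 with weights) and from 6 h to 24 h (-0.054 with limma-voom, -0.06 with weights, -0.007 with no filter). The cause was not tested.

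Replicate numbers did not pair the samples: 2 of 15 same-numbered pairs correlated above 0.1 (r from -0.156 to 0.207), and 4 of 11 libraries were closest to their own number. With the replicate block, 5, 6 and 4 members were called at 6, 12 and 24 h and 3 from 12 h to 24 h, and KDM3A changed by -0.025 from 12 h to 24 h and by -0.042 from 6 h to 24 h.

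Leaving out 1 library at a time, 4 to 5, 4 to 7 and 3 to 6 members were called at 6, 12 and 24 h, 0 to 2 from 6 h to 12 h, 2 to 8 from 12 h to 24 h, 4 to 7 from 6 h to 24 h and 4 to 8 over all hypoxic libraries. The count at 24 h was 6 without either 24 h library (4 higher and 2 lower without replicate 2, 1 higher and 5 lower without replicate 1), and from 12 h to 24 h it was 2 when 12 h replicate 2 or 3 was left out and 8 when 24 h replicate 1 was. Fold changes that changed sign ran, at 24 h, from -0.11 to 0.32 for KDM2B, -0.28 to 0.061 for KDM4A, -0.20 to 0.62 for KDM4C, -0.57 to 0.61 for KDM5B and -0.59 to 1.42 for KDM7A. At 12 h they ran from -0.078 to 0.26 for KDM3B and -0.067 to 0.024 for KDM6A, and at 6 h from -0.016 to 0.13 for KDM4C. From 12 h to 24 h they ran from -0.37 to 0.084 for KDM2B, -0.63 to 0.54 for KDM3A, -0.59 to 0.21 for KDM4C and -1.97 to 0.017 for KDM7A, and from 6 h to 24 h from -0.67 to 0.52 for KDM3A, -0.22 to 0.60 for KDM4C and -1.86 to 0.15 for KDM7A.

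The log2 ratio of KDM3A to KDM3B ran from 2.05 to 2.31 and that of KDM6B to KDM6A from -0.82 to -0.59 without 1 library, and KDM4B to KDM4C from -0.013 to 0.15. Without both 24 h libraries they were 1.93 and -0.55 (adjusted p = 0.0595 each, where 6 against 3 libraries cannot go below an exact p of 0.0238). As differences of fitted fold changes they were 2.37 and -0.86. The depth of 27496009 or more counts per library put every member at 106 counts or more, so the spread between libraries and the 2 libraries at 24 h limit these comparisons more than counting does.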
